A study of Mus musculus with 8 samples.

Results

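This account describes 38 genes with imprinted expression that lie outside the Dlk1-Meg3 domain, in mouse hemogenic endothelium cultures without and with induction of the transcription factor Runx1. The genes were chosen by symbol and classed by textbook assignment for the mouse, 16 as maternally expressed and 21 as paternally expressed. Gnas, which encodes the stimulatory G protein alpha subunit, has a parental origin that depends on the transcript. Whether these genes were imprinted in these cells was not measured. Probes were matched to 37 of the 38 genes through a table of accessions. Of these, 35 could be tested among 14503 genes in all, and Phlda2 and Rasgrf1 were not well above background often enough to be tested. H19 was not matched through that table and is not analysed here.

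The cells were of strain C57BL/6 and, in both groups, carried the doxycycline-inducible construct (iRUNX1, a Tet-on system), and the labels give doxycycline as the only difference between them. Embryoid bodies grown from embryonic stem cells were dissociated after 3.25 days. Their Flk-1+ cells were purified, cultured, purified a further time and held for 2 days in medium for hemogenic endothelium, which is endothelium able to give rise to blood. Induced cultures received doxycycline overnight, at a dose the labels state as 0.3 µl/ml, and uninduced cultures, labelled as controls, did not. Each group had replicates 1 to 3, 1 array each, plus 1 array titled as a technical repeat. Cells given doxycycline without the construct were not analysed here, and the labels are the only source for the independence of the replicates, so the p-values measure the spread between these arrays.

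Imprinted genes are transcribed mainly from the chromosome inherited from one parent. DNA methylation laid down in the egg or sperm marks a control region, and that mark decides which copies of the genes around it are active, often through a long noncoding RNA or an insulator. Many imprinted genes act on growth: Igf2 is a fetal growth factor, Igf2r clears it, Cdkn1c restrains the cell cycle and Grb10 dampens insulin and growth factor signalling. The arrays measured total RNA of each gene and did not separate the parental alleles.

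The upstream sequences of the members whose results are largest show what the neighbourhood of these start sites looks like. They are the 250 bases before an annotated start in RefSeq, build GRCm38.p6, written 5′ to 3′ on the gene's strand. Capitals mark TGCCGC or its reverse complement GCGGCA, the word recognised, when methylated, by ZFP57, the zinc finger protein that protects imprints in the early embryo. The paternally expressed Mest and Nap1l5 and the maternally expressed Zim1 hold the word, and the CpG-rich window of the maternally expressed Igf2r does not. The windows of Ddc and a further window of Mest, not printed, lack it too.
Mest, chr6:30737800-30738049, plus strand: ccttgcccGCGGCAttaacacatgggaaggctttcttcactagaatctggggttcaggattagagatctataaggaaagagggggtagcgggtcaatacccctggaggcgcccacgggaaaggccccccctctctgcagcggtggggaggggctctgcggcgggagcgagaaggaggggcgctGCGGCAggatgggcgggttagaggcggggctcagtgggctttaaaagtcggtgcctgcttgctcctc
Zim1, chr7:6696433-6696682, minus strand: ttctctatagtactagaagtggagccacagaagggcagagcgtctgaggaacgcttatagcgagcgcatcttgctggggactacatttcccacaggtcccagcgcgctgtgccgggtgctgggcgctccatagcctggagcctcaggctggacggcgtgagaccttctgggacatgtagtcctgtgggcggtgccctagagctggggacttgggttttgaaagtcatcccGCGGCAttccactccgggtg
Nap1l5, chr6:58907127-58907376, minus strand: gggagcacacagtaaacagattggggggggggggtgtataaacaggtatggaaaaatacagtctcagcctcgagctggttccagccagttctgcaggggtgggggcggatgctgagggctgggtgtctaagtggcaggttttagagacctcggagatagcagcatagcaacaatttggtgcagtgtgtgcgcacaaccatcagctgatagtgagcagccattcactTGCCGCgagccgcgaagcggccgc
Igf2r, chr17:12769707-12769956, minus strand: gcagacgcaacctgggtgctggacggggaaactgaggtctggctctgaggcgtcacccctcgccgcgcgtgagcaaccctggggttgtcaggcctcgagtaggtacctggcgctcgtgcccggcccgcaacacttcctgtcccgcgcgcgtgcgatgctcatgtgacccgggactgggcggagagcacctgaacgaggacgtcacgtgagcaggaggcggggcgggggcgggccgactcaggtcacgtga
The 4 windows hold 14, 14, 10 and 27 CpG dinucleotides in the order printed. Over all 49 windows of the 32 members that have one, the median was 10 CpG, against 6 over all 32851 RefSeq windows. TGCCGC on either strand was found in 6 member windows (12.2%), of Mest, Copg2, Nap1l5, Zim1 and Plagl1, and in 8.68% of all windows. The Mest windows among them overlap almost fully and hold the same matches, so they count the same stretch more than once. TGTGGT or TGCGGT on either strand, the core words of RUNX proteins, were found in 4 member windows (8.16%), of Ppp1r9a, Magel2, Igf2 and Slc22a18, and in 18.6% of all windows. No member held both kinds of word, and a match describes these letters only.

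Of the 35 imprinted genes tested, 4 fell after induction, 1 rose and 30 did not pass. Mest, Zim1, Igf2r and Ddc fell, and Nap1l5 rose. Over all 14503 genes, 2.17% fell and 4.14% rose, 6.31% in either direction (limma, Benjamini-Hochberg adjusted p under 0.05). At an unadjusted p under 0.05 stood 10 of the 35, against 21.7% of all genes. The median difference of the 35 genes, induced minus uninduced on the log2 scale, was -0.23, against 0.09 over all genes. 25 of the 35 had a lower mean in the induced group (71.4%, against 41.0% of all genes), and 18 were lower in each of the 3 pairs of arrays with the same replicate number (51.4%, against 21.8% of all genes). In these cultures fewer cells of a type and less RNA per cell cannot be told apart. The direction also rests on the scale: each array was set to its own 75th percentile, and with scaling to spiked control RNA instead the median of the 35 genes was 1.06, that of all genes was 1.38, and no imprinted gene fell past the threshold (0 of 35, also 0 at an unadjusted p under 0.05). On that scale Mest, at -0.53, and Zim1, at -0.44, kept a negative value without passing, and Igf2r and Ddc turned positive.

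**Figure D1:**
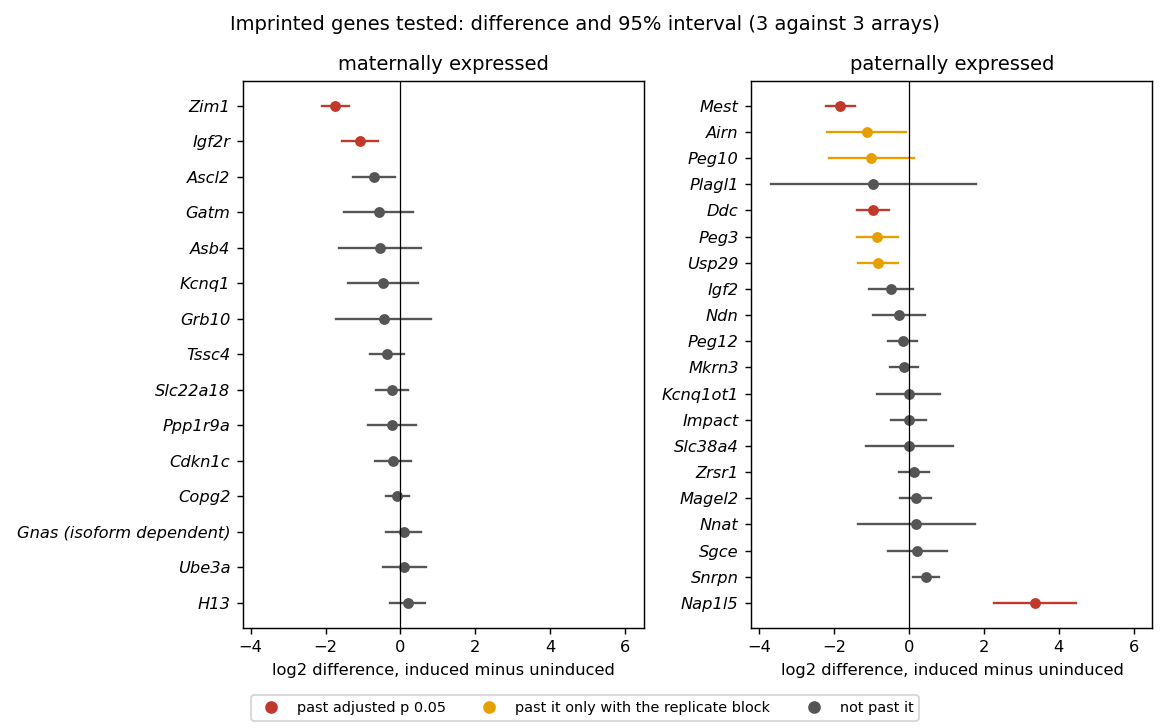
Difference between the 3 induced and 3 uninduced arrays for the 35 imprinted genes tested, on the log2 scale, with 95% intervals from limma. Most points lie left of 0. Nap1l5 lies farthest to the right, and its uninduced value is background.

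The arrays had 75th percentile signals of 338 to 973, and 55.6% to 70.4% of spots were well above background. Runx1 had 2 probes, which differed by -1.03 (adjusted p = 0.126) and -0.75, the second at background on all 6 replicate arrays. No source used here says whether they lie in the part carried by the construct, so they do not check the labels. All 10 endothelial markers were well above background on all 6 arrays, as listed for the labelled cell type. Of 10 blood markers 4 rose and 0 fell, of 10 stromal and smooth muscle markers 1 fell, and of the endothelial markers 2 fell (limma). Among the blood markers that rose, Ikzf1 and Myb were well above background on 1 and 2 of 3 uninduced arrays. Both entered the test through their induced arrays alone. With the replicate number as a block in the fit, 6 endothelial markers fell, 4 stromal and smooth muscle markers fell and 1 rose, and 4 blood markers rose. Of all genes, 6.81% fell and 9.37% rose with the block. All 10 endothelial markers had a lower induced mean, 9 of them in all 3 pairs, with a median difference of -1.02. None of the pluripotency and visceral endoderm markers tested (3 and 1) passed. The signals of each marker set were summed on the linear scale and the sum taken to log2, so the brightest markers weigh most. For 10 blood markers it was 0.92 to 2.51 on uninduced and 3.37 to 4.31 on induced arrays. For 10 stromal and smooth muscle markers it was 9.63 to 9.82 against 9.16 to 9.42, and for the endothelial markers 6.32 to 7.84 against 5.84 to 7.01. For 5 pluripotency markers it was -0.16 to 0.75 against -0.27 to 0.03, with Sox2 at background on all 6. For 5 visceral endoderm markers it was -2.26 to -1.26 against -2.45 to -1.54, with Ttr and Apoa1 at background. The part of these marker sets in the differences of the imprinted genes was not tested.

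The replicate numbers paired the arrays, and a fit with the replicate number as a block called more genes. With the block, 8 imprinted genes fell and 1 rose, beside 6.81% and 9.37% of all genes. Airn, Peg10, Peg3 and Usp29, all paternally expressed, were the 4 added to Mest, Zim1, Igf2r and Ddc.

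Among the paternally expressed genes, 20 of 21 were tested, of which 2 fell and 1 rose, with a median difference of -0.14. Mest encodes an enzyme of the alpha/beta hydrolase fold that is abundant in embryonic mesoderm and marks it. Its log2 signal, relative to the array's 75th percentile, was 8.37, 8.20 and 8.07 on uninduced replicates 1 to 3 and 6.20, 6.56 and 6.40 on the induced ones. All 3 induced arrays lay below all 3 uninduced arrays. The mean went from 8.21 ± 0.15 to 6.39 ± 0.18 (SD, n = 3 each), a difference of -1.83 (SE 0.16, 95% interval -2.21 to -1.44) or 3.54-fold lower, with a limma adjusted p of 0.00296. The other probes of Mest differed by -2.26 and -2.95. The technical repeat arrays read 8.25 and 6.81, the same direction.

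Ddc encodes aromatic L-amino acid decarboxylase, which makes dopamine and serotonin, and shares a domain with the maternally expressed Grb10. It read 3.88, 3.37 and 3.73 on uninduced and 2.61, 2.69 and 2.84 on induced replicates. The groups did not overlap, and the technical repeats, at 4.09 and 3.15, ran the same way. The difference was -0.95 (SE 0.18, limma adjusted p = 0.0296), 1.93-fold lower, and its other probe differed by -1.44. The call ended when any 1 array but uninduced replicate 2 was left out (adjusted p 0.0618 to 0.100), with the median of each array in place of its 75th percentile (0.102) and without the filter on dim probes (0.0700). Grb10 itself was dim and scattered, with a difference of -0.45 (SE 0.53, adjusted p = 0.641).

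Nap1l5 encodes a nucleosome assembly protein-like factor and lies within the gene Herc3. On the probe that stands for it, no uninduced array was well above background, with readings of -6.22, -7.35 and -6.48, while all 3 induced arrays were, at -4.06, -3.39 and -2.50. The induced group was therefore at least 4.17-fold higher, its mean of -3.32 being set against a floor that averaged -5.38 on the uninduced arrays. The limma adjusted p of 0.0101 belongs to the measured readings, with means of -6.69 and -3.32, and not to this bound. On each array the floor was the dimmest signal that any probe well above background gave, or this probe's reading where that was higher. It bounds the processed signal only. This gene entered the test through its induced arrays alone, and a second probe, which did not pass the filter, was well above background on 2 of 3 induced arrays and on 0 uninduced ones. With normexp background correction the difference was 0.79 and missed the threshold (adjusted p = 0.0966). Herc3, the host gene, differed by 0.35 (SE 0.19, adjusted p = 0.320).

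**Figure D2:**
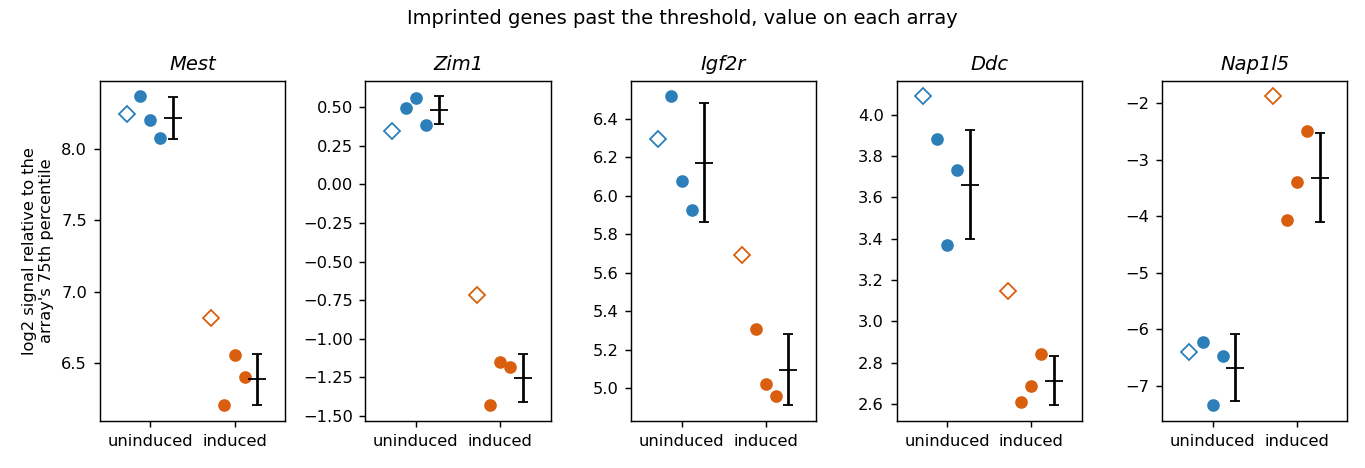
Log2 signal relative to the array's 75th percentile for the 5 imprinted genes past the threshold, with filled points for replicates 1 to 3, open diamonds for the technical repeats and bars for mean ± SD (n = 3). Induced arrays lie below uninduced ones for Mest, Zim1, Igf2r and Ddc and above them for Nap1l5, and each panel has its own axis.

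Airn is the long noncoding RNA that runs antisense to Igf2r and silences it on the paternal chromosome. It read 3.61, 3.23 and 2.23 on uninduced and 2.51, 1.93 and 1.27 on induced replicates, so that replicates of 1 group spread widely and the groups overlapped. Within pairs the differences were close, at -1.10, -1.30 and -0.97. The mean difference of -1.12 (SE 0.44) had an adjusted p of 0.207 without the block and 0.00686 with it. A second probe differed by -1.13.

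Peg10, a gene derived from a retrotransposon and needed in the placenta, read 0.52, 1.87 and 2.15 on uninduced and -0.07, 0.94 and 0.67 on induced replicates. Its difference was -1.0 (adjusted p = 0.279, with the block 0.0312). Sgce, the paternally expressed epsilon-sarcoglycan gene next to it, differed by 0.23 (SE 0.33, adjusted p = 0.707) and was higher in all 3 pairs.

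Plagl1 encodes a zinc finger protein that restrains proliferation and regulates other imprinted genes. It varied more between replicates than between groups, with 0.50, 1.11 and 2.61 on uninduced and -1.80, 0.37 and 2.80 on induced replicates. Its difference of -0.95 had an SE of 1.14 (adjusted p = 0.650). A second probe ran alike at -0.98, and the other 2 probes differed by -0.35 and -0.10.

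Igf2 read 4.99, 5.16 and 4.63 on uninduced and 4.71, 4.63 and 4.00 on induced replicates, a difference of -0.48 (95% interval -1.07 to 0.11, adjusted p = 0.312, with the block 0.0698). It was lower in all 3 pairs. Impact, an inhibitor of the amino acid sensing kinase GCN2, read 5.47, 4.99 and 5.09 against 5.26, 4.94 and 5.35, with a difference of -0.00 (95% interval -0.47 to 0.46). Nnat, which encodes the membrane proteolipid neuronatin, differed by 0.20 on its brighter probe and by 1.59 on the other. It did not pass (adjusted p = 0.878). Without uninduced replicate 1 the other probe became the brighter one and passed, at 1.21 (adjusted p = 0.0412), while the first probe then differed by -0.33. Slc38a4, an amino acid transporter gene, read 4.57, 3.22 and 2.74 against 4.02, 3.33 and 3.20, a spread within groups far above its difference of 0.01. Zrsr1, which encodes a splicing factor-like protein, differed by 0.14.

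Of the maternally expressed genes, 14 of 16 were tested, 2 fell and 0 rose in limma, and 3 had an unadjusted p under 0.05, a share near that of all genes. Their median difference was -0.40, and 12 of the 14 had a lower induced mean. Zim1 encodes a zinc finger protein of the Peg3 domain. It read 0.50, 0.56 and 0.39 on uninduced and -1.43, -1.15 and -1.18 on induced replicates, with 0.35 and -0.72 on the technical repeats. The groups were far apart compared with their spread, and the difference was -1.74 (SE 0.15, 95% interval -2.09 to -1.38, limma adjusted p = 0.00262), 3.33-fold lower. Its other probe differed by -1.79.

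Igf2r encodes the receptor that carries mannose 6-phosphate tagged enzymes to lysosomes and removes IGF2 from the cell surface. It read 6.52, 6.08 and 5.92 on uninduced and 5.31, 5.02 and 4.96 on induced replicates, and 6.30 and 5.69 on the technical repeats. The groups did not overlap, and the difference was -1.08 (SE 0.20, limma adjusted p = 0.0291), 2.11-fold lower. The call ended when uninduced replicate 2 (adjusted p = 0.102) or induced replicate 1 (0.0548), 2 (0.0940) or 3 (0.103) was left out. With the median of each array in place of its 75th percentile the adjusted p was 0.0800, and without the filter on dim probes it was 0.0671.

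Cdkn1c, the cyclin-dependent kinase inhibitor p57, read 4.82, 5.14 and 4.88 on uninduced and 4.41, 5.01 and 4.81 on induced replicates. Its difference of -0.20 (95% interval -0.68 to 0.27, adjusted p = 0.572) was smaller than the spread within the induced group. H13, which encodes the signal peptide peptidase, read 4.95, 4.85 and 5.24 against 5.40, 4.88 and 5.31, a difference of 0.19 (adjusted p = 0.603). Tssc4 read 3.40, 3.52 and 2.92 against 2.85, 3.02 and 2.90, a difference of -0.35 (adjusted p = 0.335). Ascl2, a basic helix-loop-helix factor of the trophoblast, read -1.17, -1.78 and -1.92 against -2.52, -2.13 and -2.36. Its groups did not overlap, but the difference of -0.71 did not pass (SE 0.24, adjusted p = 0.148). Copg2, a coat protein subunit gene beside Mest, had groups that did not overlap, yet differed by only -0.08 (95% interval -0.40 to 0.24), and its technical repeats differed by 0.81. Gnas read 6.57, 6.27 and 6.52 against 6.76, 6.19 and 6.67 and differed by 0.08 (adjusted p = 0.829).

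In all, 8 of the 35 genes had induced arrays entirely below uninduced ones, namely Mest, Zim1, Igf2r, Ddc, Peg3, Usp29, Ascl2 and Copg2, where 8.71% of all genes did. For 2 genes, Nap1l5 and Snrpn, the induced arrays lay entirely above, as for 19.6% of all genes. The 4 genes higher in all 3 pairs were those 2, Sgce and H13, where 37.8% of all genes were.

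In the Peg3 domain the maternally expressed Zim1 fell and both paternally expressed genes had negative values. Peg3, a zinc finger gene linked to maternal care and fetal growth, read 1.75, 2.50 and 2.24 on uninduced and 1.22, 1.19 and 1.54 on induced replicates. Its difference was -0.85 (adjusted p = 0.0903, with the block 0.0412) on this probe and -1.80 on the other, and the mean of its probes passed without the block (adjusted p = 0.0170). Usp29, a ubiquitin protease gene sharing the Peg3 start region, read -2.62, -2.81 and -2.67 against -3.47, -3.93 and -3.13, a difference of -0.81 (adjusted p = 0.0946, with the block 0.0327). In the Igf2r domain the silenced partner and its silencing RNA, Igf2r and Airn, had like differences, -1.08 and -1.12.

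**Figure D3:**
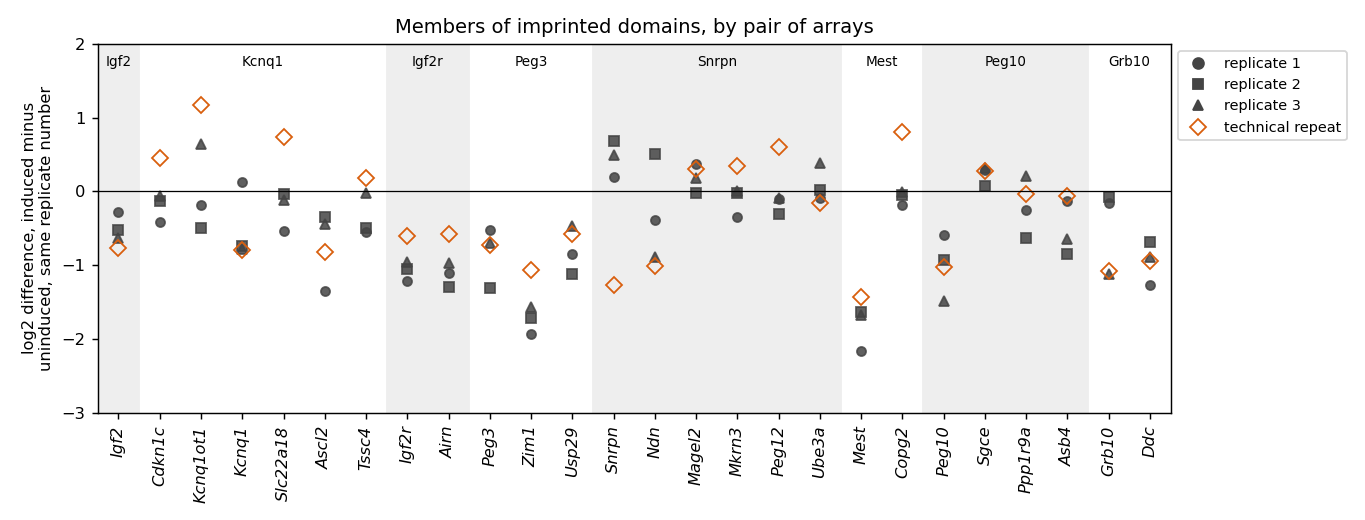
Difference between induced and uninduced arrays of the same replicate number for members of 8 imprinted domains, on the log2 scale, with open diamonds for the technical repeats. All tested members of the Igf2, Igf2r, Peg3, Mest and Grb10 domains lie below 0 in all 3 pairs, Copg2 by little. The Kcnq1, Peg10 and Snrpn domains have points on both sides of 0.

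In the Kcnq1 domain, 0 of 6 tested genes passed in limma, and 1, Ascl2, had an unadjusted p under 0.05. Kcnq1ot1, the noncoding RNA that silences this domain on the paternal chromosome, differed by -0.01 (95% interval -0.86 to 0.84). The potassium channel gene Kcnq1 and the transporter gene Slc22a18 differed by -0.46 and -0.23. In the Snrpn domain, the region of Prader-Willi and Angelman syndromes in humans, 0 of 6 passed and 1, Snrpn, had an unadjusted p under 0.05. Snrpn, a splicing protein gene, read 1.36, 1.11 and 1.15 on uninduced and 1.56, 1.79 and 1.64 on induced replicates, a difference of 0.46 (adjusted p = 0.139). Its technical repeats went the other way, by -1.26. The growth suppressor necdin, Ndn, differed by -0.26, Magel2 by 0.18, the RING finger gene Mkrn3 by -0.12, Peg12 by -0.16 and the ubiquitin ligase gene Ube3a by 0.11. The remaining members were the ankyrin repeat gene Asb4 at -0.54, the neuronal scaffold gene Ppp1r9a at -0.22 (-1.27 on its other probe) and Gatm, which encodes the first enzyme of creatine synthesis, at -0.58, and none of them passed.

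18 of the tested members had several probes above the filter, and for 1 of them, Gnas, the probes differed in sign. Its probes are annotated to different transcripts, and the second one differed by -0.25.

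**Figure D4:**
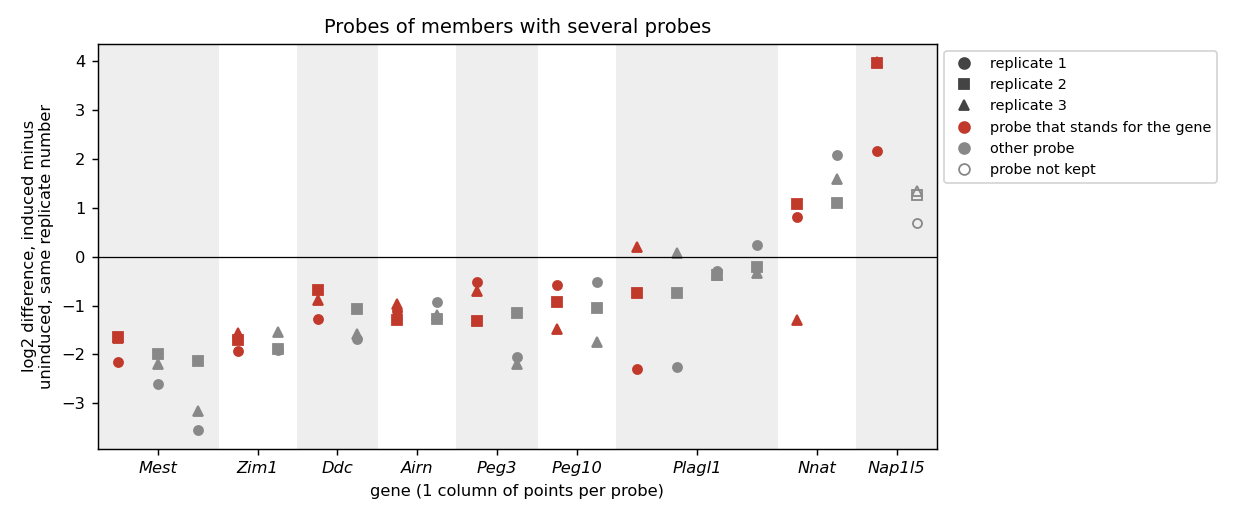
Difference by replicate number for each probe of 9 members with several probes, on the log2 scale; red marks the probe that stands for the gene, grey the others, and open points a probe that did not pass the filter. The probes of Mest, Zim1, Ddc, Airn, Peg3 and Peg10 lie below 0 in every pair, while those of Plagl1 and Nnat spread across it.

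The genes that flank the changed members were taken by gene order, after the members' values were known. Klf14, a maternally expressed zinc finger gene next to Copg2 and not among the 38, fell by 1.84 on the log2 scale (SE 0.22, limma adjusted p = 0.00639). On the other side of Mest, Cep41 differed by -0.47 (adjusted p = 0.164). Beyond Fignl1, which lies beside Ddc and differed by 0.35, the blood transcription factor gene Ikzf1 rose by 4.17 (SE 0.46, limma adjusted p = 0.00515). Ikzf1 was well above background on only 1 of 3 uninduced arrays and entered the test through its induced arrays alone. The size of its rise therefore rests on uninduced readings near background. Of the other host genes, Blcap, around Nnat, differed by 0.16 and Commd1, around Zrsr1, by 0.05.

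Genes that work with imprinted genes were read from lists. Of 16 tested genes (of 18 listed) for imprint maintenance and DNA methylation, 0 passed in limma, 2 had an unadjusted p under 0.05 (against 21.7% of all genes), and the median was 0.17. With the block 2 rose, where 9.37% of all genes did: the de novo methyltransferase gene Dnmt3b, at 1.27 (adjusted p = 0.131, with the block 0.0181), and the histone methyltransferase gene Setdb1, at 0.70. Of 12 genes of Polycomb and histone H3 lysine 9 silencing, 0 passed, 2 had an unadjusted p under 0.05, and 1, the Polycomb methyltransferase gene Ezh2, rose with the block, at 0.66. In the insulin-like growth factor pathway 16 of 21 genes were tested, 8 had an unadjusted p under 0.05 in limma, and 1 rose past the threshold. This was Irs1, the adaptor below the insulin and IGF1 receptors, which went from -0.11, 0.45 and 0.41 to 3.55, 3.03 and 2.63 and was 7.08-fold higher (limma adjusted p = 0.00353). With the block 6 of these genes rose and 2 fell. Igf1, the growth factor itself, was 1 of the latter, at -2.26 (adjusted p = 0.148, with the block 0.00531). Of 7 genes listed as cyclin-dependent kinase inhibitors, 1 rose, Cdkn2d, 2.04-fold (limma adjusted p = 0.0259), while Cdkn1a and Cdkn1b differed by 0.01 and 0.05. Of 5 genes listed beside Grb10 and Phlda2, namely Grb7, Grb14, Grb2, Phlda1 and Phlda3, 0 passed in limma and 3 had an unadjusted p under 0.05. With the block Grb7 rose and Phlda1 fell. For lists of this size these counts are read against 21.7% of all genes at an unadjusted p, and 9.37% rising and 6.81% falling with the block.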

How the data were processed

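RNA of 6 cultures, 3 per group, was hybridised to Agilent 1-colour arrays, with 2 more arrays titled as technical repeats. The authors deposited scanner output with processed and median signal as intensity on a linear scale and flags of 0 or 1, made with Feature Extraction 10.7.3.1 per the file headers (the submitters' processing notes name 10.7.1.1 and limma). They also deposited a table of log2 values; how it was normalized is not stated in the sources used here.

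Control spots and outlier flags (114 to 246 spots per array) were removed. The processed signal was taken to log2, the 75th percentile of the array was subtracted, and spots sharing a probe were averaged. A RefSeq accession named 26582 of 55681 probes, through a GRCm38.p6 table used for names and order. Probes well above background on all 3 arrays of at least 1 group were kept, and the brightest stood for its gene. Brightness served only to choose a gene's probe and the members given by array. Groups were taken from the titles and compared in limma 3.58.1 under R 4.3.3 (lmFit, eBayes, two-sided tests), with adjustment over 14503 genes and a threshold of 0.05. The technical repeats were not fitted. They correlated best with replicate 3 of their group (0.992 and 0.981). The fit was tested on simulated data.

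The labels give both groups the same replicate numbers. Deviations from the group means correlated within numbers at 0.65, 0.45 and 0.43, so the numbers were read as pairs, on the basis of the data. All arrays shared 1 slide. The normexp alternative used the median signal.

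Members and lists were chosen with earlier results of these data known. Members past the threshold, the 4 brightest of each parental class, and any with groups apart by at least 1 on the log2 scale are given by array, and others were added after their values were seen. Few arrays limit the precision. Of the flanking genes, 1 is not reported here.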

Additional observations from a re-analysis of the deposited data

Results flagged for a closer look

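The technical repeat arrays, which entered no test, read -6.40 for Nap1l5 without induction, not well above background, and -1.88 with induction, well above it. On this probe the induced array was at least 14.05-fold higher, against a floor on the uninduced array. The second Nap1l5 probe read -6.27 and -6.02 on the same arrays, well above background on neither, a difference of 0.25. These arrays lie outside the comparison but correlate best with replicate 3 of their groups, so they are not independent of it. The cause was not tested.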

How the results depend on the processing

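The count of genes past the threshold, 915, was 534 without the filter, 2346 with the replicate block and 358 to 822 when 1 replicate was left out. The count of imprinted genes that rose, 1, was 0 with normexp (3 higher at an unadjusted p under 0.05), 0 with a filter on all 6 arrays, which removes Nap1l5, 2 in the authors' deposited table with columns read by the array they track (Nnat added, through its other probe), and 1 to 2 with 1 replicate left out. The count that fell, 4, was 2 with median centring, 0 with spike-in scaling, 2 without the filter, 8 with the replicate block and 2 to 4 with 1 replicate left out (2 without any 1 of the induced replicates). The median of -0.23 was -0.073 with median centring, 1.06 with spike-in scaling, -0.35 with the mean of the kept probes and -0.27 to -0.13 with 1 replicate left out. With spike-in scaling 23 of the 35 values turned sign, beside a like shift of all genes, among them Airn (0.17), Ascl2 (0.58), Ddc (0.34), Igf2r (0.22), Peg3 (0.45) and Usp29 (0.48). The 75th percentile stood higher over the spike-ins in induced arrays by 1.17, 0.80 and 1.91 in the pairs and by 0.14 in the technical repeats. Of the genes past the threshold 65.7% rose, against 76.9% under median centring and 99.4% under spike-in scaling, where the median of all genes was 0.25 and 1.38. In all other cases the cause was not tested.

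Of the authors' deposited table, 2 columns tracked the array in their header and 6 another, over 20038 spots. The values rise with signal on a log2 scale, and their centring is unknown (column medians 5.37, 5.37, 5.38, 5.38, 5.38, 5.36, 5.38 and 5.36). Read by header, limma called 0 of all genes (224 at an unadjusted p under 0.05), so 0 imprinted genes rose and 0 fell, with 1 at an unadjusted p under 0.05 and a median of -0.043, and the sign turned for 20 of 35, among them Ascl2 (0.018), Grb10 (0.75), Mest (0.050), Nap1l5 (-0.073), Peg3 (0.16) and Zim1 (0.078).

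Mest and Zim1 passed in every setting run except spike-in scaling and the table read by header. The replicate block changed no call of a member beyond those given in the report. Of 628 single-gene values over the alternatives, 556 kept their sign and 72 turned, most of the latter with spike-in scaling or the table read by header. Of those that kept it, 18 lost the threshold and 8 gained it. A fit with the slide as a block was not run, because all arrays shared 1 slide. Signal over background limits Nap1l5, Kcnq1, Phlda2 and Rasgrf1.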
